A study of Mus musculus with 106 samples.

Results

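H3K4me3 peak lists of hematopoietic stem cell (HSC) preparations were compared between diabetic and control mice. The members were chosen by their titles and not by any measured value, and they are 12 of the 106 samples of the series and 12 of the 70 with a peak list: 6 libraries from diabetic mice and 6 from control mice. All mice were C57BL/6J, aged 12 to 14 weeks at assignment. Diabetes was induced with streptozotocin, a toxin of insulin-producing beta cells, at 42 to 45 mg/kg/day over 5 days, and the mice were taken after 6 weeks with blood glucose above 13.9 mmol/L. Control mice were nondiabetic and of matching age. Bone marrow was flushed from femurs and tibias and depleted of cells carrying CD3, CD4, B220, Ter119 or Gr1, so that the preparation was enriched for stem and progenitor cells but not sorted for them. The cells were unstimulated. The study treats each library as 1 animal, while the labels themselves number the libraries without naming animals.

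Trimethylation of lysine 4 on histone H3 marks the start sites of active and poised genes. It is deposited by the SET1 and MLL complexes, which are drawn to unmethylated CpG islands, and is removed by the KDM5 demethylases. In marrow it is found at stem cell regulators such as Gata2 and Runx1 as well as at housekeeping genes, and the study asked whether hyperglycemia leaves such marks behind in the cells that give rise to macrophages.

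A peak was 1 interval of enrichment over the input of the same number, called in that library alone. The 12 lists held 13730 to 145750 peaks. Diabetic 6 had the shortest list (13730), control 2 the next (37378), and diabetic 1 the third (39412), whereas diabetic 2 to 5 held 82772 to 145750 and controls 1 to 6 held 37378 to 109214. Each list was therefore cut to its best 13730 peaks by the deposited −log10 p. The last peak kept had a −log10 p of 3.74 in diabetic 6, 8.63 in diabetic 1, 20.9 to 28.4 in diabetic 2 to 5 and 10.0 to 16.5 in the controls, so the cut lists differ in strength although they are equal in length. Results that rest on diabetic 6 are given with and without it.

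A promoter was the window of 1000 bp to either side of any start site of a protein-coding gene, and a gene was marked where a peak reached that window. Of 21938 genes, 5096 (23.2%) were marked in all 12 libraries and 8070 (36.8%) in none. Both ends of this range differed in base composition. The CpG content, observed over expected, had a median of 0.812 among genes marked in all 12 libraries and of 0.18 among genes marked in none. A CpG-poor promoter was thus seldom in these lists.

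**Figure D1:**
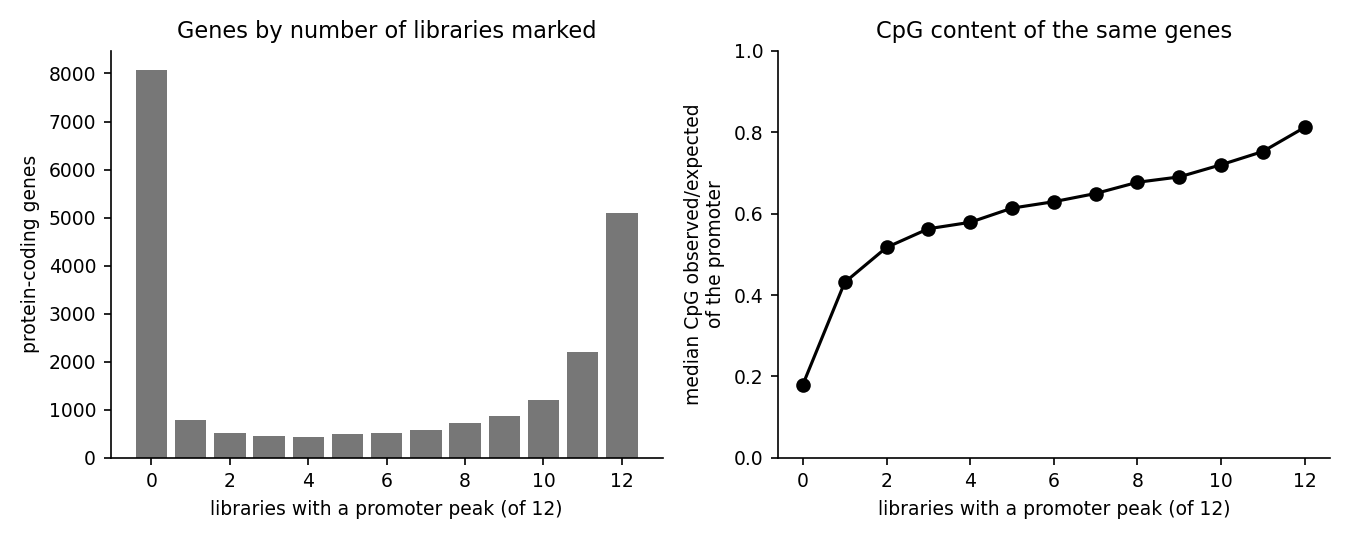
Number of protein-coding genes (left) and median CpG observed over expected of their promoters (right) by the number of the 12 libraries in which the promoter was marked. The 8070 genes marked in no library have a median CpG content of 0.18 and the 5096 marked in all 12 one of 0.812.

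The label of the cells was set against marker genes. Of the 7 heptad factors, which bind together at stem cell enhancers, Tal1, Lmo2, Gata2, Runx1 and Fli1 were marked in all 12 libraries, Erg in 4 diabetic and 5 control libraries, and Lyl1 in 0 diabetic and 1 control library. Among 12 surface genes of stem and progenitor cells, 6 were marked in no library, including Ly6a, which encodes Sca-1, and Slamf1. Kit, the stem cell factor receptor, was marked in 5 diabetic and 5 control libraries. Many genes of other lineages were unmarked: 13 of 16 neutrophil granule and maturation genes, 14 of 20 monocyte and macrophage genes, 11 of 14 B cell genes, 9 of 15 T cell genes and all 9 mast cell, basophil and eosinophil genes were marked in no library. This held for fewer of the erythroid genes (8 of 17) and of the stromal and endothelial genes (5 of 13), and Ank1, Car2 and Runx2 of these lists were marked in all 12 libraries. Each library marked 1 to 3 of the neutrophil genes, 3 to 5 of the monocyte and macrophage genes, 2 to 3 of the B cell genes and 3 to 4 of the T cell genes, with the same ranges in both groups to within 1 gene. Mpo, Elane, S100a8, Cd79a and Cd3e were at no mark in every library.

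These markers do not identify the cells. Of the 155 marker genes checked, the 79 marked in no library had a median CpG content of 0.177 and the 29 marked in all 12 had 0.720. In control bone marrow-derived macrophages (BMDM) of the same series, 10 of the 20 monocyte and macrophage genes were likewise unmarked in all 6 libraries, among them Lyz2, Adgre1 and Itgam, while Tal1 and Gata2 were marked in all 6. The labelled cell type could therefore be neither shown nor refuted from these lists, and a difference in the cell makeup of the preparations cannot be told apart from a difference within a cell type.

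Of the measures compared between the groups, promoter width gave the lowest adjusted p. The width was that of the widest peak interval at any start site of the gene, compared on a log2 scale after subtracting each library's median, for the 5096 genes marked in all 12 libraries. At an adjusted p under 0.05 (limma, Benjamini-Hochberg), 0 of 5096 widths (0.0%) differed, and the lowest adjusted p was 0.342. The exact Wilcoxon test called 0 too, but it can give no p below 0.00216. After adjustment it could call a gene only if a great many separated fully, so its 0 adds little. Without adjustment, 251 genes had p under 0.05 by limma and 276 by the Wilcoxon test. The limma count was 20 of 5096 without centring, 384 of 5539 without diabetic 1 and 434 of 5864 without diabetic 6. By limma with centring and all libraries, 141 (2.77%) were wider in diabetic and 110 (2.16%) narrower.

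The promoters with the lowest p on the wider side were those of Znrf2, Ninj1, Sipa1l3, Tgfbr1, the pair Csnk2b and Gpank1 that share their peaks, Phox2a and Tead1. At Znrf2 (chr6:54816916-54893500, plus strand, GRCm38), a membrane-associated ubiquitin ligase gene, the widest interval measured 272, 988.5 and 1163 bp (lowest, median, highest) in the diabetic libraries and 385, 452.5 and 556 bp in the controls. In bp, diabetic 1 to 5, at 865 to 1163, lay above every control, and diabetic 6, at 272, below every control. The median promoter width of diabetic 6 was 475 bp, against 849 to 1137 bp in the controls. Once the library medians were subtracted, as in the test, diabetic 6 lay within the control range. The difference was 0.88 on the log2 scale (SE 0.17, 1.84-fold, adjusted p = 0.342 by limma). Leaving out diabetic 6 gave 0.99 with an adjusted p of 0.0365.

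Tead1, which encodes a DNA-binding partner of YAP and TAZ, measured 284, 1381 and 1489 bp in the diabetic libraries and 542, 639 and 747 bp in the controls. Again, in bp, diabetic 1 to 5 lay above every control and diabetic 6 below. Once the library medians were subtracted, diabetic 6 (-0.742) lay within the control range. Its log2 difference was 0.68 (SE 0.18, adjusted p = 0.869 by limma), and 0.84 (adjusted p = 0.0365) without diabetic 6. Znrf2 and Tead1 were the 2 genes called when diabetic 6 was left out.

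At Tgfbr1, the type I receptor for transforming growth factor beta, the values were 749, 1733.5 and 1907 bp against 734, 891 and 1204 bp. Sipa1l3, of the family that switches off Rap GTPases, had 510, 1443 and 1475 bp against 515, 696.5 and 799 bp. In both, diabetic 2 to 5 exceeded every control in bp while diabetic 1 and 6 lay within or below the control range. The groups also overlapped once the library medians were subtracted. The limma adjusted p was 0.532 for Tgfbr1 and 0.449 for Sipa1l3.

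The widths of these 4 promoters followed a gap. In the controls the mark at Znrf2 was called as 2 intervals on either side of a short stretch downstream of the start site, and in diabetic 1 to 5 as 1 interval running across it. All 6 controls were divided in this way, with gaps of 67 to 184 bp, and no diabetic library was. Tead1 was divided in 1 diabetic and 5 control libraries, Tgfbr1 in 2 and 6, and Sipa1l3 in 2 and 6. Ssbp2, a partner of LDB1 in hematopoietic enhancer complexes, was divided in 5 or more controls and in none of diabetic 1 to 5, and so were Bmp2k, Brd3, Cebpa, Sall3, Tpbg and Znrf2, 7 genes in all. A single gene (1) was divided in 4 or 5 of diabetic 1 to 5 and in no control.

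The stretches common to the gaps of the divided controls, in the case of Ssbp2 of 5 of its 6 divided controls, are shown because the width of these promoters turned on them. They were read from GRCm38, 5′ to 3′ on the strand of the gene, with CG dinucleotides in capitals, and were chosen after the widths had been seen. They lie at chr6:54817164-54817206 for Znrf2 (plus), chr7:112679467-112679514 for Tead1 (plus), chr4:47353079-47353099 for Tgfbr1 (plus), chr7:29518659-29518715 for Sipa1l3 (minus) and chr13:91461051-91461115 for Ssbp2 (plus).
Znrf2: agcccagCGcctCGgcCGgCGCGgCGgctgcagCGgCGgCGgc
Tead1: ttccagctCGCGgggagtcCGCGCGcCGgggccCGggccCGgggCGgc
Tgfbr1: agggcccCGCGggCGgggctc
Sipa1l3: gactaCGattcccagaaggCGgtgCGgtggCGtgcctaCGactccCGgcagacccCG
Ssbp2: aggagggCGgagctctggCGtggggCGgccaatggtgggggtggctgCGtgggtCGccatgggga

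The stretches were 68.4 to 90.5% GC. Read from 500 bp to either side of the start, the promoters were 76.7% at Znrf2, 72.7% at Tead1, 74.1% at Tgfbr1 and 68.3% at Sipa1l3. The stretch of Sipa1l3 was thus no richer than its promoter. At Ssbp2 that window was 59.9% GC, but the stretch lies outside it. The one at Znrf2 begins 248 bp after the start site and holds 9 CG dinucleotides in 43 bp (88.4% GC), and the one at Tead1 begins 149 bp after it and holds 9 in 48 bp (87.5% GC). At Tgfbr1 the stretch runs from -143 to -123 bp and holds 3 in 21 bp (90.5% GC). Sipa1l3 has 7 in 57 bp (68.4% GC) just upstream of its start, and Ssbp2 has 5 in 65 bp (73.8% GC) beginning 768 bp downstream. A peak interval covered the Znrf2 stretch in 5 diabetic libraries and the other 4 stretches in 4. That 0 controls covered them follows from how the stretches were chosen, except for control 4 at Tead1 and the control left out at Ssbp2.

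**Figure D2:**
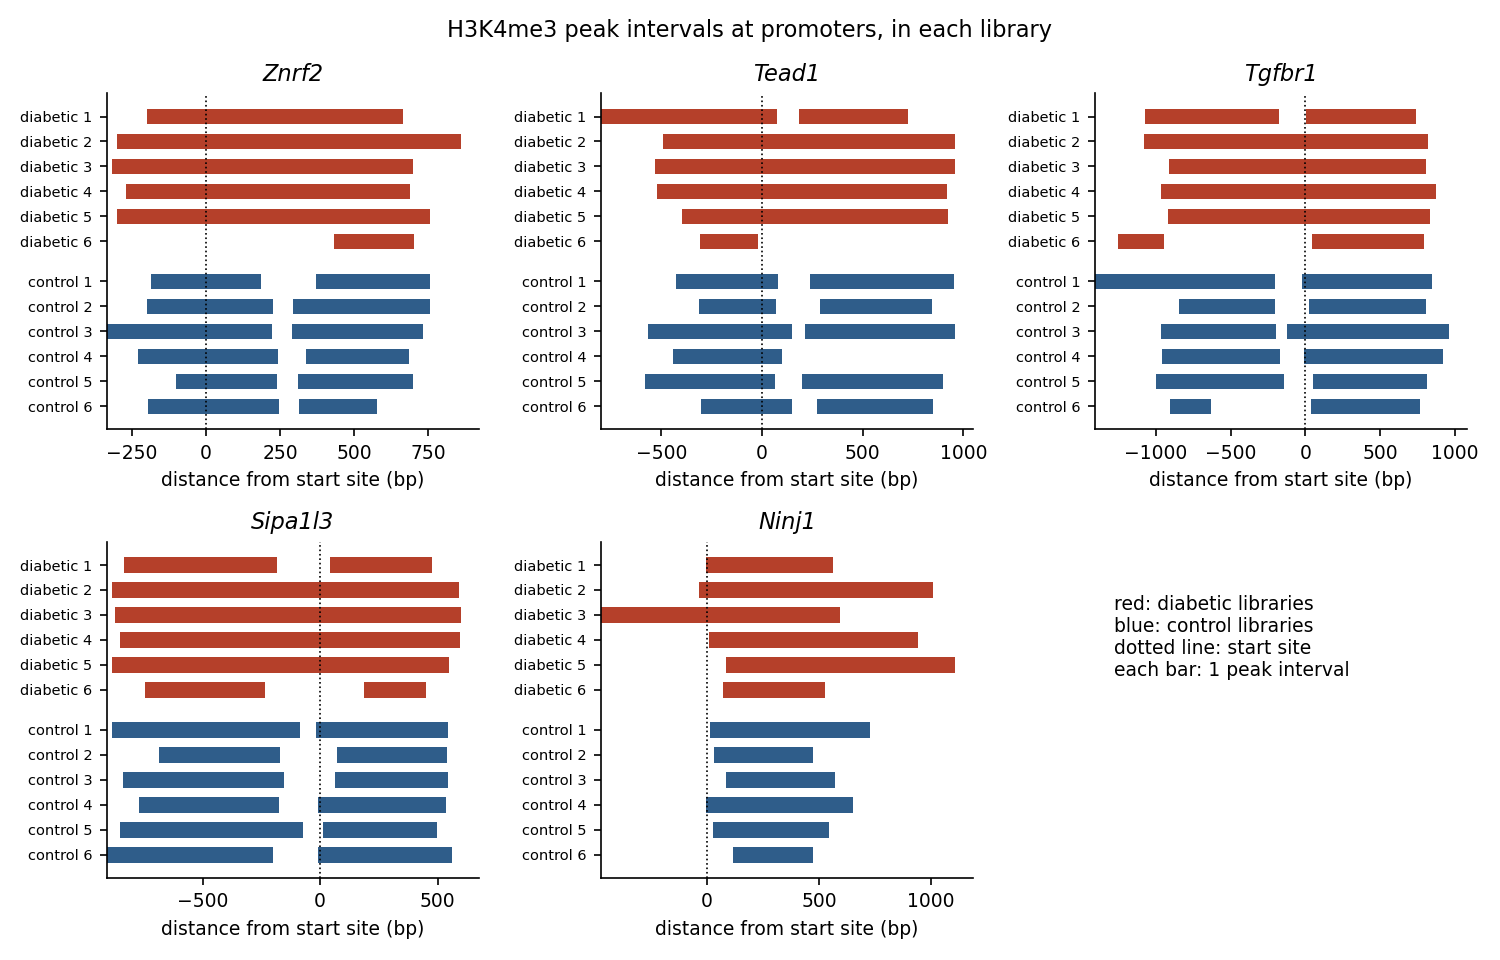
Peak intervals at 5 promoters, by distance from the start site in bp (horizontal axis), in each diabetic (red) and control (blue) library: at Znrf2, Tead1, Tgfbr1 and Sipa1l3 diabetic 2 to 5 show 1 interval and the controls 2 with a gap, apart from control 4 at Tead1. At Ninj1 every library shows 1 interval.

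When the width was instead taken from the first to the last base of all intervals at the promoter, gaps included, these promoters did not stand apart. The log2 difference became -0.12 at Znrf2, -0.02 at Tead1, 0.02 at Tgfbr1 and 0.06 at Sipa1l3, each with an adjusted p of 0.999 by limma, and 0 of 5096 spans were called (205 at an unadjusted p under 0.05). The span measure was added after the widths had been seen. At Znrf2 it measured 272, 988.5 and 1163 bp in the diabetic libraries and 771, 926.5 and 1067 bp in the controls. The outer edges of the mark thus overlapped, and what differed was whether the middle was called.

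Not every wide promoter was of this kind. Ninj1, whose product acts in plasma membrane rupture, was a single interval in all 12 libraries, of 453, 978 and 1064 bp in the diabetic and 357, 501.5 and 715 bp in the control libraries. Raw widths overlapped, but once each library's median was subtracted the 6 diabetic values all lay above the 6 control values. The gene was picked for a low p, and separated promoters among all 5096 were not counted. The width difference of Ninj1 was 0.67 (SE 0.13, adjusted p = 0.342 by limma). Its span difference was 0.68 (adjusted p = 0.474 by limma). Phox2a, a neuronal homeodomain gene, had 738, 1667.5 and 1957 bp against 877, 908 and 1241 bp, a difference of 0.60 (SE 0.15, adjusted p = 0.716) that was 0.70 by span. These widths did not all come from the same interval: around the gene's first base the interval was 870, 1039 and 1106 bp in diabetic 3, 4 and 5, and control 1 had none there, so that the wider interval lay at another start site. Csnk2b and Gpank1, which face each other and share every peak, had 501, 1371.5 and 1681 bp against 336, 682.5 and 867 bp, and 0.78 by span.

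On the narrower side stood Cdc42bpa, Snf8, Mob3c, Rapgef1, Tmem98, Zfp710, Tbx15 and Fam181b, with limma adjusted p from 0.869 to 0.872. Cdc42bpa, a kinase that acts on myosin, measured 510, 1270.5 and 1375 bp in diabetic and 1222, 1421 and 1752 bp in control libraries, a difference of -0.46 (SE 0.13). After the library medians were subtracted the groups did not overlap, with the same limit as at Ninj1. Snf8, a subunit of the endosomal sorting complex ESCRT-II, measured 307, 563.5 and 858 bp against 626, 716 and 1171 bp (-0.58, SE 0.16). In all 8 genes the groups overlapped in bp, and for the 7 others than Zfp710 the span difference was also below 0.

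**Figure D3:**
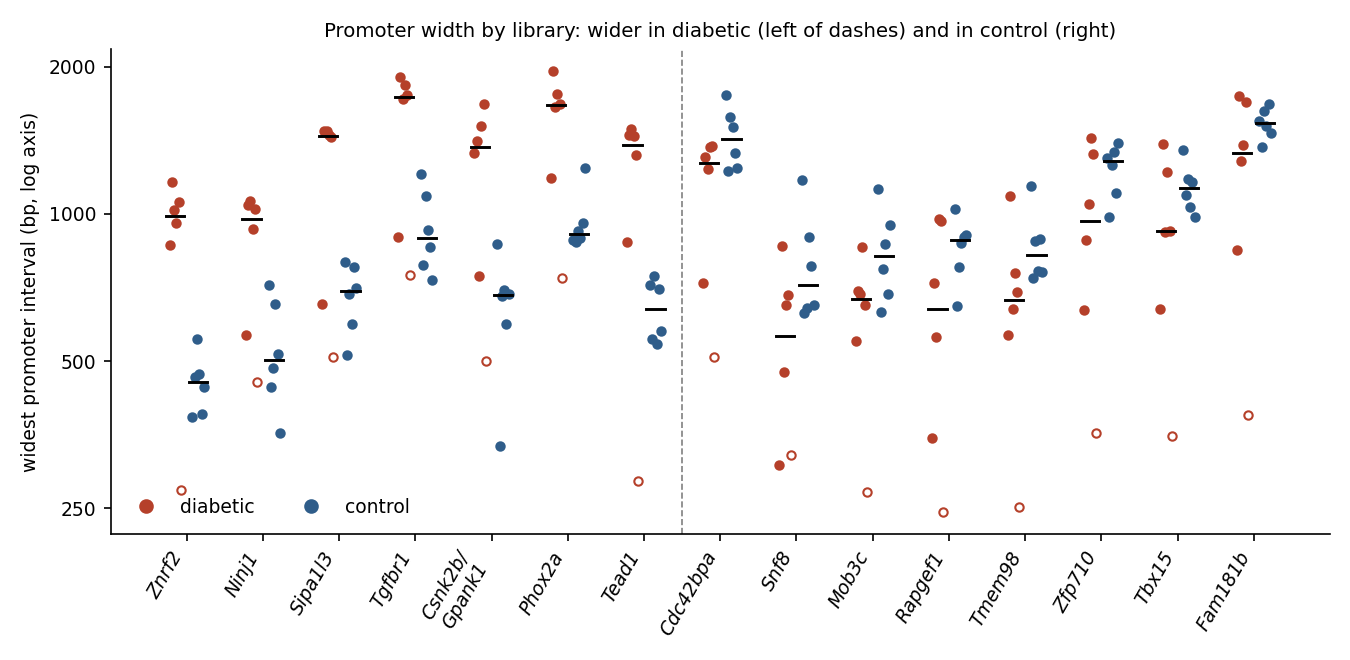
Width of the widest peak interval at the promoter (bp, log axis) in each diabetic (red) and control (blue) library, with the group median as a bar and diabetic 6 as an open circle. Diabetic 6 is the lowest of the diabetic libraries at every promoter shown except Snf8, where diabetic 1 is lower. Diabetic 2 to 5 exceed all controls at Znrf2, Tead1, Tgfbr1 and Sipa1l3, and also at Ninj1 and Phox2a.

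Divided promoters were not limited to these genes. Among the 5096 promoters, 6.57 to 10.2% held 2 or more intervals in diabetic 2 to 5, 12.5 to 14.6% in the controls, 15.9% in diabetic 1 and 23.1% in diabetic 6. In all, 34 promoters were divided in at least 4 more control than diabetic libraries and 3 in at least 4 more diabetic libraries. Diabetic 2 to 5 were also the libraries whose cut lists ended at the highest −log10 p. With the log2 number of peaks as a covariate the width differences were 0.86 at Znrf2 and 0.63 at Tead1, and 0 widths were called (lowest adjusted p 0.373 by limma). Widths correlated by Spearman's rho at 0.796 to 0.843 among diabetic 2 to 5, over 5096 genes in each pair, and at 0.640 to 0.775 between them and the controls; genes are not independent replicates, and these are a description. The part that peak strength plays in the widths was not tested beyond this.

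Giving each library a weight by its spread, diabetic 6 received 0.147, diabetic 1 received 0.353, diabetic 2 to 5 received 1.87 to 2.34 and the controls 0.726 to 1.45. In this limma fit 8 widths were called, all wider in diabetic: Znrf2, Tead1, Sipa1l3, Tgfbr1, Zfp407, Ninj1, Ssbp2 and Col13a1, with adjusted p from 0.0109 to 0.0427. The fit rests largely on diabetic 2 to 5. Of these 8, Znrf2, Tead1, Sipa1l3 and Tgfbr1 had the span differences given above, Ssbp2 had -0.24, Zfp407 had 0.28, and Ninj1 (0.68) and Col13a1 (0.99) kept a wider span.

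For the lists as a whole, 3 measures were compared by the exact permutation test over all 924 arrangements, two-sided, which can give no p below 0.00216. The share of genes with a marked promoter was 47.1% ± 3.91 (SD, n = 6) in diabetic and 48.3% ± 2.15 (n = 6) in control libraries, an exact p of 0.556 (adjusted 0.834 over the 3 measures). The share of peaks lying at promoters was 76.5% ± 3.11 in diabetic and 79.2% ± 2.28 in control libraries (n = 6 each, exact permutation p = 0.126, adjusted 0.377). The median promoter width was 1012 ± 308 bp in diabetic and 981 ± 117 bp in control libraries (n = 6 each, exact permutation p = 0.846, adjusted 0.846).

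The groups overlapped in all 3 measures, and diabetic 6 was the lowest of the 12 in each. Without it the differences, diabetic minus control, were 0.0900 percentage points for marked promoters (exact p = 0.937), -1.72 points for peaks at promoters (exact p = 0.249) and 139 bp for the width (exact p = 0.145). In lists cut to 37378 peaks, which leaves diabetic 6 out, peaks at promoters made up 44.2% ± 1.22 (n = 5) in diabetic and 45.7% ± 0.655 (n = 6) in control libraries, with an exact permutation p of 0.0411 that was 0.123 after adjustment.

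**Figure D4:**
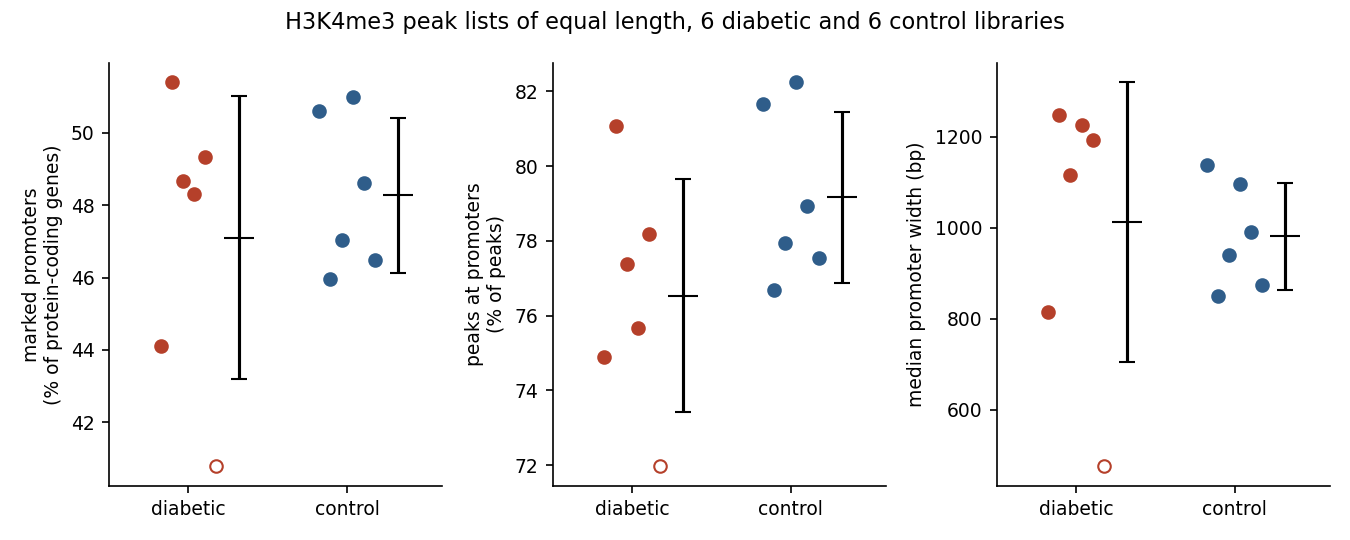
Marked promoters (% of protein-coding genes), peaks at promoters (% of peaks) and median promoter width (bp) in each library after all lists were cut to 13730 peaks, with the mean and SD of 6 libraries beside the points; diabetic 6 is the open circle. Both groups overlap in each panel and diabetic 6 is the lowest library in each; the axes do not start at 0.

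The place of a peak in its list, 1 being the strongest by −log10 p, was compared for the 11185 genes marked in at least 6 libraries. Places were turned into normal scores, with an unmarked promoter given the place after the last. At an adjusted p under 0.05, 0 of 11185 genes (0.0%) differed by limma with Benjamini-Hochberg adjustment and 0 by the exact Wilcoxon test. The floor of the Wilcoxon p given for the widths applies here too. Before adjustment 290 genes had p under 0.05 by limma, 109 (0.975%) with a better place in diabetic and 181 (1.62%) with a better place in control libraries, and 315 by the Wilcoxon test. The limma count was 552 of 10947 without diabetic 1 and 492 of 10462 with peaks ranked by fold. With the log2 number of peaks as a covariate it was 547 of 11185, and 0 were called in each of these fits. By these places, libraries of the 2 groups were no further apart than libraries of 1 group: the mean distance, 1 minus Spearman's rho over these genes, was 0.538 between and 0.555 within groups (one-sided exact permutation p = 0.677). The paper, quantifying H3K4me3 at variable regions, reports that diabetic and control HSC could be clearly told apart. It also reports more of the mark in diabetic HSC, at promoters near chromatin opened in diabetic BMDM and by Western blot. Places in lists of equal length cannot show a rise in the overall level of the mark, so that was not tested here.

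Among the genes with the lowest p on the diabetic side were Ttc17, Cd276, Asb13, Actr3, Edf1, Mok, Odf2, Tor1a, Zcchc2 and Atp7b, the last sharing its peaks with Alg11, each with a limma adjusted p of 0.9999. Ttc17, which acts in building cilia, took places 51 to 3919 (median 1816) in diabetic and 4005 to 7732 (median 6404.5) in control libraries. The groups did not overlap, and the score difference was 1.33 (SE 0.39, adjusted p = 0.9999 by limma). Such separation is likely among genes picked for a low p, and separated genes among all 11185 were not counted. Zcchc2 did not overlap either, at places 158 to 2668 (median 1754) against 3703 to 8758 (median 4603).

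Cd276, the immune checkpoint ligand B7-H3, stood at 161 to 5087 (median 624) in diabetic and at 924 to 9111 (median 5364) in control libraries. Actr3, a core subunit of the actin-nucleating Arp2/3 complex, was marked in 6 diabetic libraries at places 1158 to 7670 and in 3 controls at 4126 to 12216. Asb13, an adaptor of a ubiquitin ligase, was marked in 6 diabetic libraries at 2037 to 13482 and in control 6 alone at 9563. Tor1a, the endoplasmic reticulum ATPase torsinA, and Odf2, a centriole appendage protein, had medians of 650.5 and 918.5 in diabetic and 4758 and 3518.5 in control libraries, with overlap in both.

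On the control side the lowest p belonged to Lrrfip2, whose product takes part in Toll-like receptor signaling. It stood at places 33 to 1306 (median 351) in control and 1154 to 6498 (median 3107.5) in diabetic libraries, overlapping by control 2 and diabetic 4 (score difference -1.39, SE 0.34, adjusted p = 0.9999 by limma). Rapgef1, an activator of Rap GTPases, stood at 36 to 3228 (median 984.5) in control and 2634 to 10278 (median 7120.5) in diabetic libraries, and its interval was also among the narrower ones (0.678-fold). Sltm, a regulator of transcription, did not overlap, at 157 to 1013 in control and 2025 to 7899 in diabetic libraries.

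Arl6ip1, which shapes endoplasmic reticulum tubules, was marked in all 6 controls at 5000 to 11772 and in diabetic 2 alone at 12327. Suv39h2, a histone H3 lysine 9 methyltransferase, stood at 56 to 1417 in control and 1249 to 5052 in diabetic libraries, and Rock1, a kinase of the actin cytoskeleton, at 70 to 3164 in control and, where marked, 1929 to 13398 in diabetic libraries. In H3K27ac scores of the same cells the differences were -0.11 (SE 0.13) at Lrrfip2, -0.05 (SE 0.20) at Rapgef1 and -0.20 (SE 0.18) at Sltm. They were -0.05 (SE 0.17) at Suv39h2 and -0.44 (SE 0.18) at Rock1. The sign was the opposite at Arl6ip1, at 0.15 (SE 0.27), and at the predicted gene Gm10800, at 1.93 (SE 0.73). None of these was called by limma. The predicted genes Gm11168, Gm10801, Gm10719 and Gm10800 completed the list: they were marked in 6 controls and 2 or 3 diabetic libraries. They are near-identical copies with 33.2 to 37.8% GC whose reads cannot be assigned to 1 copy with certainty, and in BMDM the sign of their difference was the opposite.

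**Figure D5:**
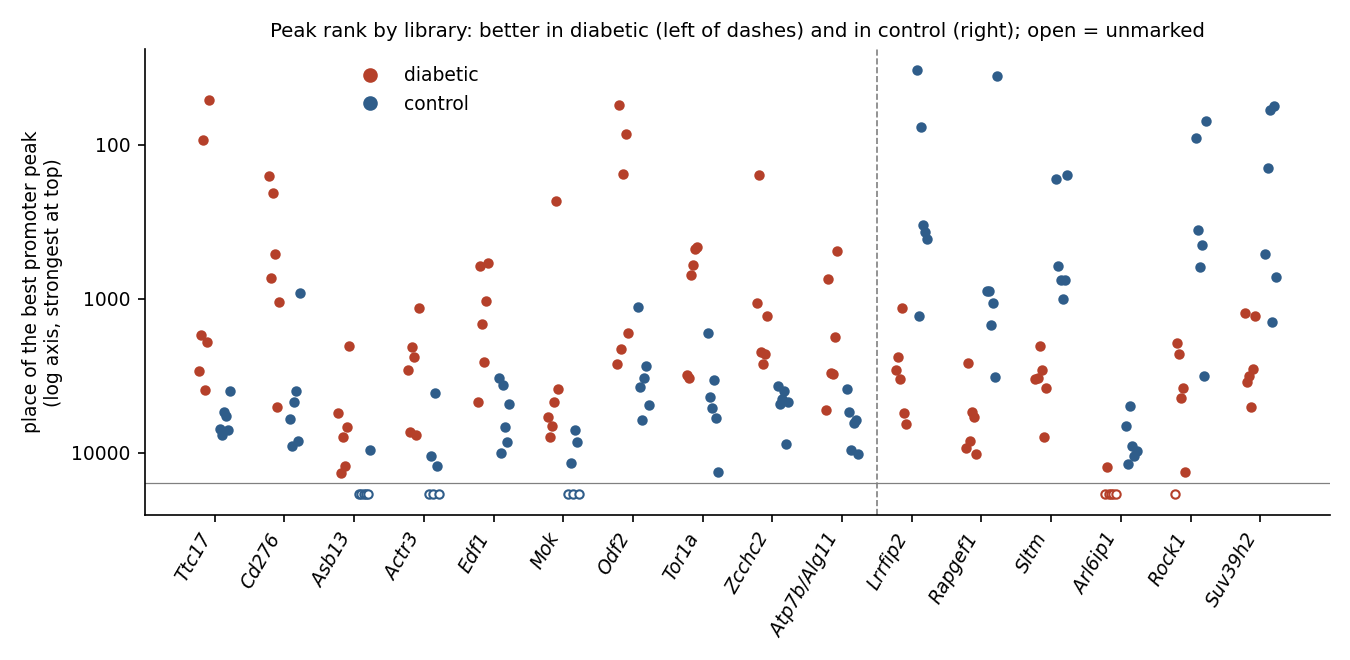
Place of the best promoter peak in the list of 13730 (log axis, strongest at the top) in each diabetic (red) and control (blue) library for the named genes other than the 4 predicted repeat-related genes; open circles under the line are libraries in which the promoter was unmarked. Of the genes shown, only Ttc17, Zcchc2, Sltm and Arl6ip1 have groups that do not overlap. All were picked for a low p, and separated genes among all those tested were not counted.

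Whether a promoter was marked at all was compared by Fisher's exact test for the 1590 genes whose count of marked libraries could reach a p of 0.05. After Benjamini-Hochberg adjustment 0 of 1590 genes (0.0%) differed. With 6 libraries a group the Fisher p cannot fall below 0.00216, so adjustment over this many genes leaves little room for a call. Between control HSC and control BMDM the same test also called 0 of 1581 genes, with 191 at an unadjusted p under 0.05. A count of 0 by this test therefore does not show that the groups are alike. Without it, 8 genes had an exact p of 0.0152: Asb13 toward diabetic, at 6 against 1, and 7 genes toward control. Babam1, a subunit of the BRCA1-A complex, and the divergent pair Gnl3 (nucleostemin) and Pbrm1 (a chromatin remodeler subunit) were marked in 0 diabetic and 5 control libraries, and Heatr1, Arl6ip1, Akap17b and Tex9 in 1 and 6. Where marked, Babam1 stood at 6234 to 12580 and Gnl3 at 9195 to 12557 of 13730, so these promoters lay in the weaker part of the lists. H3K27ac marked Babam1, Gnl3, Pbrm1, Heatr1, Arl6ip1 and Asb13 in all 6 diabetic and all 6 control libraries, Akap17b in 5 and 6, and Tex9 in 2 and 4.

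Of 18712 regions held by at least 2 libraries, 4650 lay more than 1000 bp from every start site, and 132 of these were held by all 12. Fisher's exact test called 0 of the 767 testable distal regions (0.0%), with 5 toward diabetic and 2 toward control at an unadjusted p under 0.05. The limit of this test given for promoters applies here too. The 4 foremost toward diabetic were intergenic and held 49 to 109 CG dinucleotides each. Of these, chr17:26849449-26851343, 4440 bp from the start of the cardiac homeobox gene Nkx2-5, was held by 6 diabetic and 1 control library and had 109 CG dinucleotides in 1895 bp, and chr1:74806228-74808169, 12865 bp from Wnt10a, was held by 6 and 1. The others were chr14:118230885-118232194, at 6 and 1, and chr11:13314997-13316380, at 5 and 0. On the control side, a region in an intron of Sfi1 (chr11:3171966-3172938) was held by 1 diabetic and 6 control libraries, with 10 CG dinucleotides in 973 bp. The intergenic chr18:85697679-85698456 was held by 0 and 5. Introns of Smo (chr6:29747700-29749167) and Sfi1 (chr11:3162049-3163249) were each held by 2 and 6 (unadjusted Fisher p = 0.0606). In Sfi1 and Smo the diabetic libraries were 1, or 1 and 2, as at the predicted genes Gm11168, Gm10801 and Gm10719. Whether reads there map to a single place was not tested.

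Of the genes that the study follows, 0 were called by rank or width. Il6, Il1b, Tnf, Chil3 and Retnla, encoding inflammatory cytokines and markers of alternative activation, were marked in none of the 12 libraries. Each list was cut to the length of the shortest, so these promoters were unmarked at that strength and are not shown to lack the mark. From read tracks of representative samples, HSC among them, the paper reports H3K4me3 peaks at the start sites of Il6 and Hk1. Hk1, the first hexokinase of glycolysis, was marked in 5 diabetic libraries (places 2385 to 12384) and 6 controls (4777 to 13429), and Nos2, the inducible nitric oxide synthase, in 6 (1382 to 11642) and 5 (1570 to 9608). Spi1, the myeloid factor PU.1, was marked in 3 diabetic and 1 control library. None of Hk1, Nos2 and Ctcf differed by rank (limma unadjusted p from 0.359 to 0.889).

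Runx1 was marked in all 12 libraries. Its widest interval measured 1035, 1479.5 and 2520 bp in diabetic and 622, 987 and 1710 bp in control libraries, with overlap, and the log2 difference was 0.70 (SE 0.26, adjusted p = 0.941 by limma). It was 0.62 without diabetic 6 and 0.87 by span. The place in the list did not separate the groups, at a median of 3748 in diabetic and 5613.5 in control libraries (adjusted p = 0.9999 by limma).

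Among 30 gene lists, chosen with earlier results of these data known, 0 members were called by rank or width in any. Over all genes tested the median score difference was -0.06 by rank and -0.01 by width. The shares of all genes with an unadjusted p under 0.05, against which the counts in each list are to be read, were 0.975% better in diabetic and 1.62% better in control libraries by rank, and 2.77% wider and 2.16% narrower by width. Of the 20 stem and progenitor factors tested beyond the heptad, 2 had an unadjusted p under 0.05 by rank and both stood better in diabetic libraries: Meis1, a HOX cofactor, was marked in 6 diabetic libraries at 1098 to 7530 and in 4 controls at 5705 to 11838, and Hoxb4 stood at 421 to 4413 in diabetic and 2747 to 8516 in control libraries. The list as a whole had a median of -0.30 by rank, with 6 of 20 above 0.

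Metabolic genes were mixed. Of 20 glycolysis and glucose transport genes tested by rank, 1 had an unadjusted p under 0.05: Hk2, the inducible hexokinase, marked in 3 diabetic libraries at 10866 to 12981 and in 6 controls at 7267 to 12623. Of 15 tricarboxylic acid cycle genes, Mdh2, mitochondrial malate dehydrogenase, stood at 55 to 5127 in diabetic and 3681 to 8061 in control libraries. The medians of the lists were -0.20 and 0.02. None of the 17 insulin and IGF signaling genes tested reached an unadjusted p of 0.05 by rank.

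Among 17 H3K4 methylation and demethylation genes tested, Kdm1a, the lysine demethylase LSD1, stood at 41 to 2978 in control and 304 to 5483 in 5 diabetic libraries and was unmarked in diabetic 6 (score difference -1.80, SE 0.67, adjusted p = 0.9999 by limma). Mcm2, a subunit of the replicative helicase, was marked in diabetic 6 alone and in 5 controls, 1 of 24 cell cycle genes with an unadjusted p under 0.05, and Rpl35a in 1 diabetic and 5 control libraries, 1 of 66 ribosomal protein genes. Gpx1, glutathione peroxidase 1, stood at 731 to 7610 in control and, in 5 diabetic libraries, at 6425 to 11346. Myd88, the adaptor of most Toll-like receptors, had an interval of 487, 945 and 1308 bp in diabetic and 584, 623 and 728 bp in control libraries (log2 difference 0.47, SE 0.16, adjusted p = 0.872 by limma). By width 3 other list members had an unadjusted p under 0.05, each with a limma adjusted p of 0.941: Tcf4, a factor of plasmacytoid dendritic cells, at -0.35, and, of the cholesterol genes, the synthase gene Hmgcs1 at -0.31 and Insig1, a brake on sterol synthesis, at 0.47.

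The same tests on other libraries of the series give a scale. Control HSC against control BMDM, 6 libraries each, gave 97 of 11522 genes called by rank (0.842%), 56 with a better place in HSC and 41 in BMDM, and 128 of 5192 by width (2.47%), 39 wider in HSC and 89 in BMDM (limma, adjusted p under 0.05). By promoter occupancy these libraries gave 0 of 1581 genes (Fisher's exact test, 191 unadjusted), so occupancy offers no such scale. H3K27ac of the same diabetic and control cells gave 0 of 10852 genes by rank (235 at an unadjusted p under 0.05) and 1 of 8593 by width (457). H3K4me3 in unstimulated BMDM, with 5 diabetic and 6 control libraries, gave 0 of 11128 by rank (446 unadjusted) and 0 of 6235 by width (626).

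Only Phox2a differed in its diabetic effect between HSC and BMDM among 3703 widths (limma interaction, difference 1.14, SE 0.19, adjusted p = 0.0145), and 0 of 10258 genes did by rank (361 at an unadjusted p under 0.05). In HSC the difference was 0.60 and not called, with overlap as above. In BMDM the interval measured 910 to 1182 bp in the diabetic and 1272 to 2288 bp in the control libraries, with no overlap (log2 difference -0.53, SE 0.13).

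Some promoters were among the widest in both groups. By mean percentile of width over the 12 libraries the first were Unc45b, a myosin chaperone gene, at 1150 to 3604 bp in diabetic and 3351 to 3565 bp in control libraries, and Ptch1, the Hedgehog receptor, at 1169 to 3950 and 2181 to 3798 bp. Arid1a, a chromatin remodeler subunit, and Igf1r, the receptor for insulin-like growth factors, were also among the first 12. Ahnak2 reached greater widths but varied more, at 711, 9094 and 9170 bp (lowest, median, highest) in diabetic and 3103, 5352 and 9128 bp in control libraries. Fcgr3, an Fc receptor for IgG, took the best mean place of all genes, at 4 to 543 in diabetic and 6 to 1495 in control libraries, and was itself among the widest. The diabetic minus control score of Fcgr3 was 0.33 (SE 0.44) and the width difference of Unc45b was -0.20 (SE 0.18).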

How the data were processed

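H3K4me3 ChIP-seq was sequenced as 50 bp single reads. Per the submitters' processing notes the tools were Trim Galore 0.3.3, cutadapt 1.8, FastQC 0.11.3, Bowtie2 2.2.6, Picard 2.19.2 and 2.18.14, bedtools 2.19.1 and MACS2 2.2.7.1, with builds GRCm38 and mm10; which step used which is not given in the sources used here. The authors called peaks in each library against the input of the same number and deposited a score, a fold enrichment ratio, the −log10 p and the −log10 q-value of each summit, with lists ending near a q-value of 0.05. Read depth is not in the lists and is unknown here.

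Summits of 1 interval were joined, each list was cut to 13730 peaks by −log10 p, and 0 peaks ran past the GRCm38 chromosome ends. Start sites (93513) and genes (21938 protein-coding) came from GENCODE M21; 27 symbols occur for more than 1 gene. CpG content and GC were read from 500 bp to either side of a start site. Gene names on the diabetic and control sides are the 10 with the lowest p by rank and the 8 by width in each direction, occupancy differences of at least 5 libraries, the 4 foremost distal regions in each direction and the genes the study follows; list members were named where their unadjusted p was under 0.05. Ssbp2, Zfp407, Col13a1 and the divided promoters were named after their values were seen. Members and lists were chosen with earlier results of these data known.

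Exact permutation and Fisher tests used scipy 1.17.1, limma 3.58.1 (R 4.3.3) fitted rank scores and centred log2 widths with a mean-variance trend, and limma was tested on simulated data. All adjustment was by Benjamini-Hochberg. Where labels do not name animals, p-values measure the spread between these libraries. Alternatives were other list lengths, fold in place of p, windows, overlaps, filters, normalisation, weights, leaving out each library and the replicate number as a block; GC removal and the span were added after seeing the data. Same-numbered diabetic and control libraries did not deviate together (correlations from -0.21 to 0.15), so the numbers were not taken as pairs.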

Additional observations from a re-analysis of the deposited data

Results flagged for a closer look

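In 78 groups of 6 libraries checked for a value far from the others, 12 had a gap to the nearest library, divided by the range of the group, above Dixon's 95% critical value. That value is passed by about 1 in 20 groups of normally distributed values. The rate does not apply here, because the flagged genes were named for a low p in these data and places are not normal. The 12 are a description. By place in the list these were Cd276 in diabetic 5 (0.819), Sltm in diabetic 5 (0.701), Arl6ip1 in diabetic 2 (1), Asb13 in control 6 (1), Actr3 in control 4 (0.670), Tor1a in control 6 (0.633), Zcchc2 in control 5 (0.778), Lrrfip2 in control 2 (0.701) and Rock1 in control 5 (0.820). At Arl6ip1 and Asb13 the library is the only marked library of its group. The unmarked libraries all take the place after the last, so the ratio there could only be 1. By width they were Tgfbr1 in diabetic 1 (0.796), Tead1 in diabetic 6 (0.731) and Cdc42bpa in diabetic 1 (0.6254), each the narrowest of its group once the library medians were subtracted.

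The diabetic effect on the width of Phox2a differed between HSC and unstimulated BMDM by 1.14 on the log2 scale (limma interaction, adjusted p = 0.0145). In HSC 5 of 6 diabetic libraries were wider than the control median, and in BMDM all 5 diabetic libraries were narrower than all 6 controls.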

How the results depend on the processing

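Of the 8 main results under their alternatives, 155 values kept direction and call, 10 turned in direction and 3 counts of calls changed. The difference in marked promoters was 0.297 percentage points with peaks ranked by fold and 0.824 in lists of 37378 peaks, against -1.17, and ran from -2.03 to 0.0900 when each library was left out. Peaks at promoters gave 0.0668 points by fold and -3.54 to -1.72 with a library left out. The median width difference was -3.58 bp in the top 5000 peaks and -15.9 to 139 bp with a library left out. The distance between minus within groups was 0.00272 by fold and -0.0296 to 0.00603 with a library left out, and positive without diabetic 1. Differing widths numbered 0 to 2 with a library left out (2 without diabetic 6), 8 with library weights and 1 (Znrf2) after removal of the GC trend; occupancy, distal regions and rank stayed at 0. Widths at an unadjusted p under 0.05 numbered 251 of 5096 tested. Of the same 5096 they came to 20 without centring, 451 with the log2 peak number and 647 with library weights. In other settings the number tested changed too: 28 of 516 in the top 5000 peaks, 105 of 1741 by fold and 430 of 8270 in the lists as deposited. They were 577 of 10775 with genes marked in at least 3 libraries of each group and 784 of 10562 in lists of 37378 peaks. By rank the genes at this threshold numbered 290 of 11185, and of the same 11185 came to 494 with library weights and 547 with the log2 peak number. They were 492 of 10462 by fold and 552 of 10947 without diabetic 1. With span as width, Znrf2, Tead1, Zfp710, Ssbp2 and Ctcf changed sign (-0.124, -0.0248, 0.0607, -0.244 and -0.139). Among the widest promoters named, Ahnak2 and Arid1a did so too (0.0938 and -0.0571).

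With the replicate number as a block, rank gave 0 calls (271 genes at an unadjusted p under 0.05) and width 0 (212), and the differences in marked promoters, peaks at promoters and width were -1.17, -2.64 and 31.3 (exact sign-flip p = 0.531, 0.156 and 0.813). Only diabetic 2 correlated best with its own number, by rank.

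Peak lists hold no reads, so a promoter missing from a list is unmarked at that strength and not shown to lack the mark. With diabetic 6 in the comparison every list was cut to its length, and the strength at the cut differs between libraries. Equal lengths, places in a list and centred widths cannot show a change in the overall level of the mark. The preparations were not sorted, diabetes was by streptozotocin only, and peak calls of a library rest on its input.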
